A study of Mus musculus with 677 samples.

Results

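Fatty acid handling by the absorptive cell of the mouse intestine was followed here through 5 genes, chosen by name from the 23420 genes of the expression table: Cd36, Slc27a4, Acsl5, Fabp1 and Fabp2. All 5 were in the table. The data were 677 single epithelial cells from Atg16l2-/- mice (KO) and wild-type mice (WT), all of the C57BL/6 strain. Atg16l2 is a homologue of the autophagy gene Atg16l1, and the question behind the comparison was what its loss does to this epithelium. Each cell was a library of its own, made by SMART-Seq2, which copies whole transcripts into cDNA in plates, and the part of the intestine is not given in the labels. The cell names carry 1 of 2 sequencing runs, the genotype with M1 or M2, and 1 of 9 cell types assigned by the authors. M1 and M2 were read as animals, which gives KO M1, KO M2, WT M1 and WT M2 with 80 to 87 cells each per run. The labels do not spell this out, nor whether M1 of both runs is one animal.

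As background, long-chain fatty acids released from dietary fat enter the enterocyte at its brush border, are bound by small cytosolic carrier proteins, and are joined to coenzyme A before they can be built back into triglyceride. Cd36 is a membrane glycoprotein that binds long-chain fatty acids. Slc27a4, also called FATP4, is a fatty acid transport protein with acyl-CoA synthetase activity, and Acsl5 is a long-chain acyl-CoA synthetase. Fabp1 and Fabp2 are the liver-type and the intestinal fatty acid binding proteins, both abundant in the small intestinal enterocyte. These cells arise from crypt stem cells through dividing transit-amplifying cells (TA). The authors' labels then give an early and a late enterocyte progenitor (Enterocyte.prog.early and Enterocyte.prog.late) before the mature Enterocyte.

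The values were TPM (transcripts-per-million, scaled for transcript length and to the same sum in every cell), so levels can be set side by side between genes, while read depth per cell is not known. The summed level of 5 enterocyte markers (Alpi, Apoa1, Apoa4, Lct and Apoc3) averaged 120.7 TPM in Stem, 90.9 TPM in TA, 215.2 TPM in Enterocyte.prog.early, 649 TPM in Enterocyte.prog.late and 9615 TPM in Enterocyte. That of 5 TA markers (Mki67, Top2a, Cdk1, Ube2c and Birc5) was higher in Enterocyte.prog.early (1607 TPM) than in TA (1149 TPM). Those 5 thus did not set TA apart. Stem markers (Lgr5, Ascl2, Olfm4, Smoc2 and Axin2) summed to 17006 TPM in Stem, 8645 TPM in TA and 531 TPM in Enterocyte.prog.early. Atg16l2 was above 0 TPM in 0 KO cells, which allows a share of up to 0.877%, and in 38 WT cells. Run 1 cells had a median of 6477 genes above 0 TPM and run 2 cells of 5730.5. Since the authors typed the cells from these same libraries, differences between types are given as a description, with no test. For genotype the unit was the animal, 2 against 2, so that p-values measure only the spread between these few animals.

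All 5 genes were highest in Enterocyte, in every animal, and the step from Enterocyte.prog.late to Enterocyte was where most of their level was added. In TPM averaged over the 4 animals (± SD), Enterocyte held 6183 ± 1688 for Fabp2, 5069 ± 2174 for Fabp1, 690 ± 25.9 for Acsl5, 173.7 ± 23.9 for Slc27a4 and 29.9 ± 14.7 for Cd36. The 2 binding proteins overlapped between animals and cannot be put in order, while each other neighbour in this order was separated in all 4 animals. No member passed the test between KO and WT in any comparison. The member with the smallest p on the average of 6 cell types was Fabp1, at 0.78 log2 units higher in KO, which missed the threshold after adjustment over all genes (adjusted p = 0.496, limma).

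**Figure D1:**
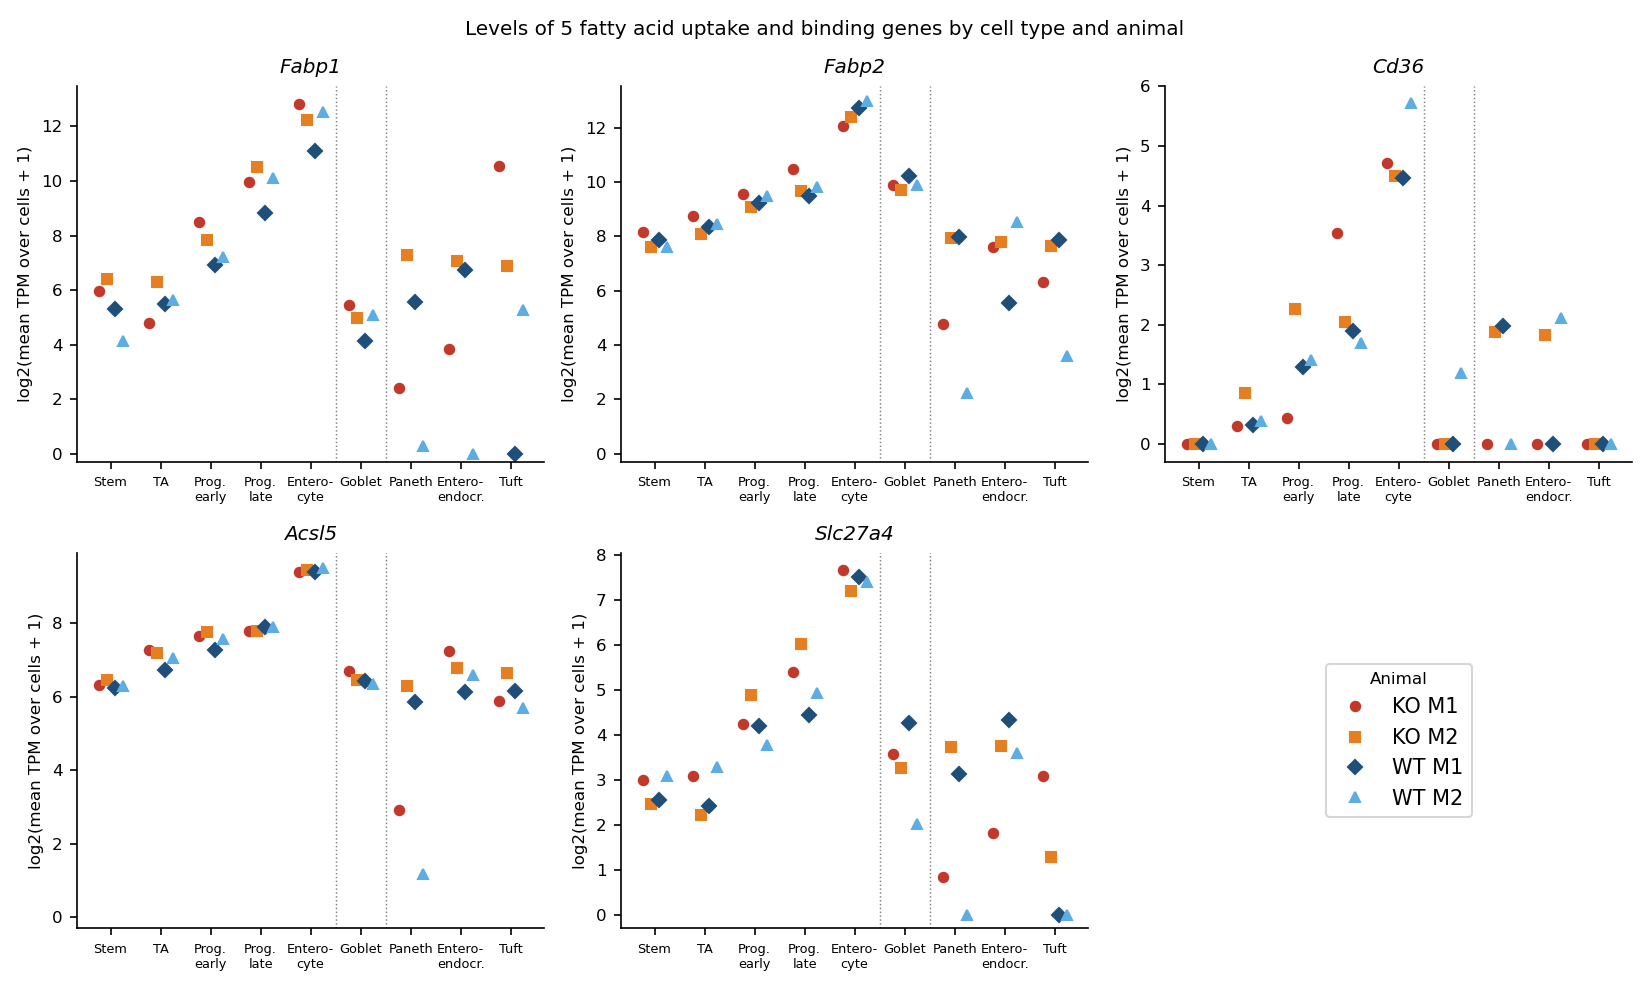
Each panel shows 1 gene as log2(mean TPM over cells + 1) for each of 9 cell types, with a point for each animal (KO M1, KO M2, WT M1, WT M2); dotted lines set off the absorptive lineage on the left, Goblet, and the 3 types with few cells on the right. In every panel the 4 Enterocyte points lie above the other lineage stages, Cd36 sits at 0 in Stem in all 4 animals, and the 3 types at the right scatter widely.

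At the cell surface, Cd36 was above 0 TPM in the smallest share of cells among the 5 members, and had the lowest Enterocyte level. Outside the lineage it was above 0 TPM in 2 of 70 Goblet, 4 of 22 Paneth, 3 of 32 Enteroendocrine and 0 of 7 Tuft cells. It was at 0 TPM in all 96 Stem cells, which allows a share of up to 3.12% of cells when 3 cells are taken as the limit for a count of 0, and 3.77% by the exact interval. It was above 0 TPM in 10 TA cells (5.71%, exact 95% interval 2.77 to 10.3%), 12 Enterocyte.prog.early cells (8.45%, 4.44 to 14.3%), 12 of 75 Enterocyte.prog.late cells (16%, 8.55 to 26.3%) and 32 of 58 Enterocyte cells (55.2%, 41.5 to 68.3%). These intervals cover counting of cells only. The share of cells was thus over 3 times as high in Enterocyte as in the stage before, and 26 of the 58 Enterocyte cells still had none. Mean Cd36 in Enterocyte was 25.3 and 21.5 TPM in KO M1 and KO M2, against 21.03 and 51.7 TPM in WT M1 and WT M2. The KO animals lay between the WT animals, with a difference of -0.48 (SE 0.48, log2, limma adjusted p = 0.846). The single highest Enterocyte cell had 242.5 TPM, and the median cell 3.34 TPM. Cd36 is also a gene of capillary endothelium and of macrophages. The summed level of 5 endothelial markers (Pecam1, Cdh5, Kdr, Plvap and Fabp4) was above 0 in 1 of the 58 Enterocyte cells, that of 5 stromal markers (Col1a1, Col1a2, Col3a1, Dcn and Lum) in 0, and that of 5 myeloid markers (Cd68, C1qa, C1qb, Csf1r and Lyz2) in 6, with means of 0.0203, 0 and 1.64 TPM.

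Slc27a4 was low in Stem and TA and higher from Enterocyte.prog.early on. Its mean was 6.96 and 4.47 TPM in Stem of KO M1 and KO M2, against 4.85 and 7.41 TPM in WT M1 and WT M2, and it stayed at 7.47 and 3.62 TPM in KO TA cells, against 4.37 and 8.80 TPM in WT TA cells. Genotypes overlapped in both types. In Enterocyte.prog.early the means were 17.9 and 28.6 TPM in KO and 17.2 and 12.6 TPM in WT, and in Enterocyte.prog.late 41.02 and 63.9 TPM in KO and 20.8 and 29.3 TPM in WT. In both progenitor stages both KO animals were above both WT animals, by 0.59 (SE 0.34) and 1.02 (SE 0.38) log2 units, without passing the test (limma adjusted p = 0.867 and 0.800). Of all genes, 36.2% and 34.1% had both KO animals beyond both WT animals at these stages. In Enterocyte.prog.late both KO animals were also above both WT animals for the summed mean of the 5 enterocyte markers. These means were 794 and 809 TPM in KO against 477 and 593 TPM in WT. The cell medians of that sum overlapped between genotypes, with KO M1 highest and KO M2 lowest. KO M2 was also the animal with the highest Slc27a4 mean at this stage. The part of these markers in the Slc27a4 difference was not tested. Within run 2 the Enterocyte.prog.late groups overlapped, at 17.4 and 54.4 TPM in KO against 20.01 and 28.7 TPM in WT, and within run 1 they did not, at 56.8 and 73.3 TPM in KO against 22.1 and 29.5 TPM in WT. The Enterocyte.prog.early groups also overlapped within run 2, at 9.66 and 23.8 TPM in KO against 21.96 and 5.61 TPM in WT, and not within run 1. In Enterocyte the genotypes met again, with 201.5 and 144.6 TPM in KO and 180.9 and 167.6 TPM in WT. The share of cells with Slc27a4 above 0 TPM was 31.2% in Stem, 32% in TA, 58.5% in Enterocyte.prog.early, 70.7% in Enterocyte.prog.late and 98.3% in Enterocyte.

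Acsl5, which activates fatty acids to acyl-CoA, had the highest Stem level relative to its own Enterocyte level, although Fabp2 was higher in Stem in TPM. Its Stem means were 78.9 and 86.7 TPM in KO and 73.8 and 77.8 TPM in WT, with 88 of 96 Stem cells above 0 TPM. From TA onward all cells of the absorptive lineage were above 0 TPM, among them 75 of 75 in Enterocyte.prog.late and 58 of 58 in Enterocyte. TA cells had 151.9 and 144.7 TPM in KO and 104.1 and 132.8 TPM in WT, and Enterocyte.prog.early cells 200.5 and 214.95 TPM in KO and 152.7 and 188.6 TPM in WT. Enterocyte.prog.late cells had 219.55 and 217.5 TPM in KO and 235.03 and 236.1 TPM in WT, and Enterocyte cells 666 and 693 TPM in KO and 675 and 724 TPM in WT. Both KO animals were thus above both WT animals in Stem, TA and Enterocyte.prog.early, and below them in Enterocyte.prog.late. None of these differences passed the test: they were 0.13 (SE 0.29), 0.33 (SE 0.20), 0.29 (SE 0.19) and -0.11 (SE 0.24) log2 units in that order, with limma adjusted p = 0.988, 0.653, 0.877 and 0.968. Of all genes, 34.1 to 40.1% had both KO animals beyond both WT animals in these types. Within run 1 and within run 2 the Acsl5 groups stayed separate in TA. In each run alone they overlapped in Stem, Enterocyte.prog.early and Enterocyte.prog.late. The Stem-to-Enterocyte difference was 3.11 ± 0.10 log2 units (SD, 4 animals), an 8.61-fold gain on the scale of TPM + 1.

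Fabp1, the liver-type binding protein, had the largest gain between Stem and Enterocyte among the 4 members detected in Stem. Cd36, listed at 0 there, is not ranked, since its gain would be set by the pseudocount. Stem cells had 61.4 and 84.3 TPM in KO and 38.5 and 16.7 TPM in WT, with only 37 of 96 cells above 0 TPM, and TA cells had 26.98 and 78.4 TPM in KO and 44.2 and 48.1 TPM in WT. Both KO animals were higher in Stem, while the KO animals lay on either side of WT in TA. In Enterocyte.prog.early the means were 361.8 and 226.8 TPM in KO and 120.2 and 147.9 TPM in WT, and in Enterocyte.prog.late 1009.8 and 1465 TPM in KO and 448 and 1102 TPM in WT. In Enterocyte they were 7341 and 4823 TPM in KO and 2198 and 5916 TPM in WT. The genotypes overlapped in Enterocyte, where WT M1 was lowest. Between Stem and Enterocyte the difference was 6.72 ± 1.22 log2 units (SD, 4 animals), about 105.5-fold on the scale of TPM + 1.

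The window around the Fabp1 start is shown because this gene combined this gain with 3 kinds of the motifs searched. It is RefSeq's window of 250 bases before to 50 after the start on GRCm38.p6, chr6:71199629-71199928, plus strand, and its start lies 52 bases downstream of the GENCODE gene start. Capitals mark matches to TTTATNG, the caudal-type (CDX) motif, read here as CCATAAA or TTTATCG, to the HNF1 core GTTAAT, and to the nuclear receptor half-site AGGTCA, read on the other strand as TGACCT.
Fabp1: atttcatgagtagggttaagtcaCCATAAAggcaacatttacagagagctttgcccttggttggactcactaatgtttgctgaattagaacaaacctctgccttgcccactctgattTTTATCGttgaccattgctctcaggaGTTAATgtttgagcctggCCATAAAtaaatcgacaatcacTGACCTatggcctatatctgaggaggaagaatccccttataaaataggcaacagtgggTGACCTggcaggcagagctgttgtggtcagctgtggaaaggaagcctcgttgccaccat
The CDX matches begin at -227, -133 and -89 from the RefSeq start, the HNF1 core at -107 and the half-sites at -67 and -9. On either strand, 10.9% of 32851 RefSeq promoter windows hold the CDX motif, 7.10% the HNF1 core and 16.3% the half-site.

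Fabp2, the intestinal binding protein, already had a higher level than Fabp1 in Stem, and was above 0 TPM in a larger share of cells there. Stem cells had 288.6 and 196.5 TPM in KO and 229.9 and 194.3 TPM in WT, and 91 of 96 were above 0 TPM. TA cells had 425 and 273.1 TPM in KO and 320.4 and 353.97 TPM in WT. Enterocyte.prog.early cells had 745 and 545 TPM in KO and 600 and 711 TPM in WT, and Enterocyte.prog.late cells 1429 and 818 TPM in KO and 715 and 900.1 TPM in WT. The genotypes overlapped at each of these stages. Enterocyte cells had 4326 and 5377 TPM in KO and 6846 and 8184 TPM in WT, so that both KO animals were below both WT animals. The Stem-to-Enterocyte difference was 4.74 ± 0.62 log2 units (SD, 4 animals), about 26.7-fold on the scale of TPM + 1.

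The Fabp2 window, chr3:122894822-122895121, plus strand, GRCm38.p6 from RefSeq, is shown for comparison with that of Fabp1; its start is also the GENCODE gene start. Capitals mark its only match, TTTATTG, to the CDX motif.
Fabp2: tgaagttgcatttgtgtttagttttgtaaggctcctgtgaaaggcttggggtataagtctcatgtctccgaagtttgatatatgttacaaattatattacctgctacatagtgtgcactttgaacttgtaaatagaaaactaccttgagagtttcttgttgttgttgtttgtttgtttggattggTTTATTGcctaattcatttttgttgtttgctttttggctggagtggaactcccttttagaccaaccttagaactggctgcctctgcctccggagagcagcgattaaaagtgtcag
That match begins at -65. The HNF4-type letters CAAAGTCCA, the DR1 repeat of that half-site (a pair of copies with 1 base between) and the GATA letters AGATAA were in none of the 5 members' windows, and are in 0.475%, 0.0396% and 11.2% of all windows. The windows of Acsl5 and Slc27a4 held none of the 6 motifs and that of Cd36 held 1 half-site. RefSeq's start lies 52905 bases from the GENCODE gene start for Cd36 and 1431 bases from it for Acsl5. The G and C content was 45% for Fabp1, 38.7% for Fabp2, 43% for Cd36, 53% for Acsl5 and 58.7% for Slc27a4, against a median of 52.7% over all windows. A match of letters is a description only.

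In the GENCODE annotation of GRCm38, Cd36 lies at chr5:17781690-17888801 on the minus strand (15 exons in its longest transcript) and Slc27a4 at chr2:29802634-29817522 on the plus strand (13 exons). Acsl5 lies at chr19:55251938-55297720 on the plus strand (22 exons), Fabp1 at chr6:71199827-71205023 on the plus strand (4 exons), and Fabp2 at chr3:122895072-122899506 on the plus strand (4 exons). The deposited table has gene symbols and no coordinates.

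Onset was read as the first stage at which an animal's mean reached 50% of its own Enterocyte mean. By this measure all 5 members had their onset at Enterocyte in 4 of 4 animals. The stage before held 20.8 ± 7.0% of the Enterocyte mean for Fabp1, 17.4 ± 10.6% for Fabp2, 18.4 ± 16.2% for Cd36, 32.9 ± 1.4% for Acsl5 and 23.4 ± 14.4% for Slc27a4 (SD, 4 animals). The members differed in what came earlier. In Stem, Acsl5 was at 11.5 ± 0.8% of its Enterocyte mean, with 10.7 to 12.5% over the animals, while Fabp2 was at 2.37 to 6.67%, Slc27a4 at 2.68 to 4.42% and Fabp1 at 0.283 to 1.75%. These ranges show Acsl5 above the other 4 in each animal. With the first stage at 10% as onset instead, Acsl5 began in Stem in all 4 animals and Fabp1 in Enterocyte.prog.late in all 4. Fabp2 began in Enterocyte.prog.early in both KO animals (17.2 and 10.1%) and in Enterocyte.prog.late in both WT animals, which had 8.77 and 8.68% at the early stage. Since this is a share of the animal's own Enterocyte level, it carries the lower KO Enterocyte mean with it. Slc27a4 began in Enterocyte.prog.early in KO M2 and in Enterocyte.prog.late in the other 3 animals. Cd36 began in Enterocyte.prog.early in KO M2, in Enterocyte.prog.late in KO M1 and WT M1, and in Enterocyte in WT M2.

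**Figure D2:**
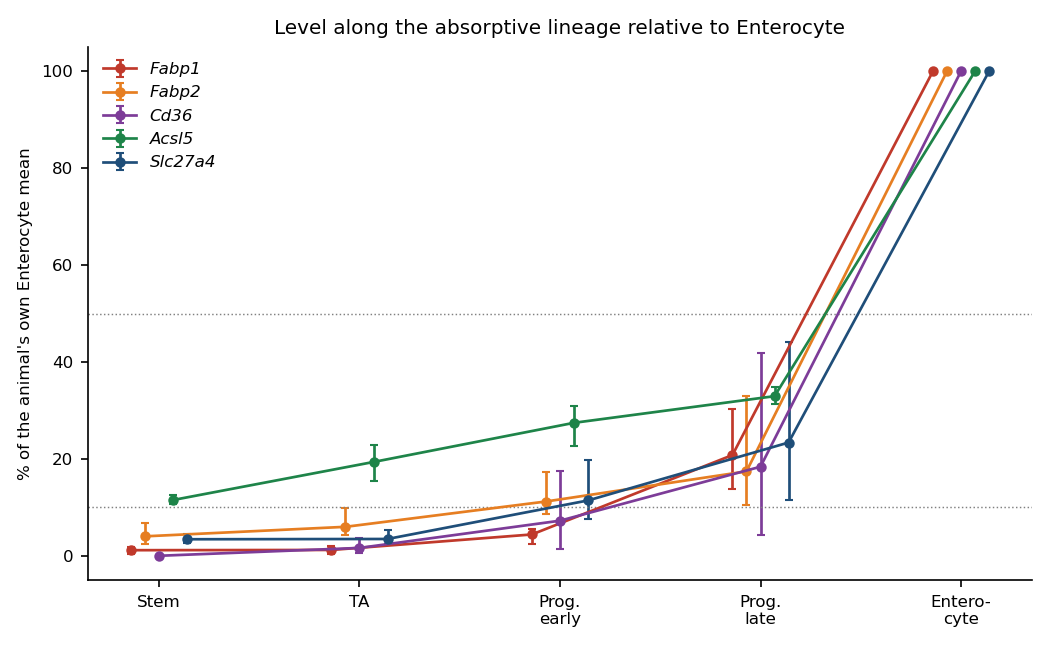
The y axis gives each gene's mean level at 5 stages as a percent of the same animal's Enterocyte mean; points are means of 4 animals, bars run from the lowest to the highest animal, and dotted lines mark 10 and 50%. Acsl5 starts at 11.5% in Stem, above the other 4 genes, and all 5 are below 50% in Enterocyte.prog.late.

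Step by step, the groups of 4 animals were compared for overlap, counting genes whose 4 animals at the later stage were all above all 4 at the earlier stage. Of the 4 members that passed the filter on low values (Cd36 did not), 1 (Acsl5) was so separated from Stem to TA, against 9.71% of the 6768 genes tested. From TA to Enterocyte.prog.early 4 members were, against 12.7% of genes, and from there to Enterocyte.prog.late 2 were (Fabp1 and Acsl5), against 8.45%. In the last step, to Enterocyte, 4 members were, against 6.24% of genes. In the last step the log2 differences were 2.69 ± 0.77 for Fabp2, 2.32 ± 0.47 for Fabp1, 2.24 ± 0.79 for Slc27a4 and 1.60 ± 0.06 for Acsl5. Across the whole lineage all 4 members that passed were higher in all Enterocyte than in all Stem profiles, against 18.9% of genes higher and 28.2% lower. The members were proposed for their place in this lineage, so nothing is drawn from these counts.

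Outside the absorptive lineage, Goblet cells set Fabp2 apart from the other members. Goblet Fabp2 was 941 and 833 TPM in KO and 1185 and 949.6 TPM in WT, above all 4 animals' Enterocyte.prog.early level by 0.59 ± 0.29 log2 units and above all 4 TA levels by 1.51 ± 0.31. A separation above Enterocyte.prog.early of this kind was seen in 9.88% of the 6599 genes tested there. Each of the other 4 members had a lower mean in Goblet than in Enterocyte.prog.early, with differences of -2.70 log2 units for Fabp1, -1.09 for Acsl5, -1.05 for Cd36 and -0.99 for Slc27a4, although Slc27a4 was higher in 1 of 4 animals. The enterocyte markers were summed at 85.1 TPM in Goblet, below the 215.2 TPM of Enterocyte.prog.early, and the 5 goblet markers (Muc2, Tff3, Clca1, Agr2 and Spink4) at 71853 TPM. Goblet Fabp2 was above 0 TPM in 69 of 70 cells, with a median of 916 TPM, so it did not come from a few cells.

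The types with few cells gave wide scatter. Paneth cells (22 cells, 3 to 9 per animal) had a median of 4.81 TPM for Fabp2, 1.82 TPM for Acsl5 and 0 for Fabp1, Slc27a4 and Cd36, while their means were moved by single cells. The Paneth cell highest in Fabp1, at 410 TPM, also held 443 TPM of the enterocyte markers against a Paneth median of 4.15 TPM. Enteroendocrine cells (32 cells) had medians of 140.7 TPM for Fabp2, 65.2 TPM for Acsl5 and 0 for the other 3. Of the 7 Tuft cells, both from KO M1 were high in Fabp1, with a mean of 1517 TPM, against means of 117.3 TPM in KO M2, 0 in WT M1 and 37.8 TPM in WT M2. The higher of the pair had 1724 TPM of Fabp1 beside 0 TPM of the 5 enterocyte markers and 48.96 TPM of Fabp2. This rests on 2 cells of 1 animal and was not tested.

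KO and WT were then compared on the average of the 6 cell types with at least 10 cells per animal. Of 6777 genes, 0 (0%) passed an adjusted p of 0.05 in limma, with 513 at an unadjusted p under 0.05. Fabp1 was higher in KO by 0.78 (SE 0.18, unadjusted p = 0.00245, adjusted p = 0.496), with both KO animals above both WT animals. It was higher on average within run 1 (0.76) and within run 2 (1.28). Slc27a4 differed by 0.26 (SE 0.19, adjusted p = 0.764), Acsl5 by 0.13 (SE 0.13, adjusted p = 0.814) and Fabp2 by -0.05 (SE 0.16, adjusted p = 0.947), all in limma, and Cd36 did not pass the filter on low values. Fabp1, Acsl5 and Slc27a4 had both KO animals above both WT animals, 3 of the 4 members tested, while 39.2% of all genes had both KO animals beyond both WT animals in one direction or the other.

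By cell type, Fabp1 differed by 1.46 (SE 0.42) in Stem, -0.0003 (SE 0.37) in TA, 1.10 (SE 0.25) in Enterocyte.prog.early, 0.79 (SE 0.37) in Enterocyte.prog.late, 0.72 (SE 0.38) in Enterocyte and 0.59 (SE 0.44) in Goblet. Its groups were separate in Stem and Enterocyte.prog.early and overlapped in the other 4 types. In Stem the separation did not hold within run 1, at 66.3 and 46.2 TPM in KO against 96.2 and 21.2 TPM in WT (0.28, SE 0.74), while in run 2 it was wider, at 57.5 and 95.1 TPM in KO against 0 and 11.9 TPM in WT. Without WT M1 the Enterocyte difference was 0.01. The means and the typical cell differed for Fabp1 in Enterocyte: cell medians were 4619 and 4145 TPM in KO and 988 and 1735 TPM in WT, without overlap. These medians pool the runs. Within run 1 the Enterocyte means overlapped, at 10087.5 and 4922 TPM in KO against 1126 and 8610 TPM in WT. In run 2 they did not, at 5967 and 4782 TPM in KO against 2879 and 2683 TPM in WT. With log2 values averaged over cells the Enterocyte difference was 2.12 (SE 0.29, unadjusted p = 1.11e-05, adjusted p = 0.0579, limma) and that in Enterocyte.prog.late 1.803 (SE 0.53, adjusted p = 0.853, limma), both with both KO animals above both WT animals and neither past the threshold. In that setting 2261 of 5840 genes in Enterocyte and 2032 of 6101 in Enterocyte.prog.late had both KO animals beyond both WT animals. With TPM averaged over cells the smallest p by type, in Enterocyte.prog.early, was 0.00184 before and 0.807 after adjustment in limma. With KO M1 left out, so that KO M2 alone stood for KO and was taken to vary as the WT animals do, Fabp1 passed in Enterocyte.prog.late (1.06, adjusted p = 0.00242, limma), in a fit that passed 2.22% of 6115 genes. With KO M2 left out, Fabp2 passed there (0.83, adjusted p = 0.0318, limma) in a fit that passed 2% of 6115 genes, against 0.43 (SE 0.28, adjusted p = 0.908) with all animals. With all animals no member passed in any of the 6 types, and the genes that did were 0% in Stem, 0.0588% in TA, 0% in Enterocyte.prog.early, 0.082% in Enterocyte.prog.late, 0.0342% in Enterocyte and 0.0161% in Goblet. Both KO animals were beyond both WT animals for 2 of 3 members that passed the filter in Stem, against 34.1% of genes, for 1 of 3 in TA, against 40.1%, and for 3 of 4 in Enterocyte.prog.early, against 36.2%. They were so for 2 of 4 members in Enterocyte.prog.late, against 34.1% of genes, for 1 of 5 in Enterocyte, against 38%, and for 2 of 3 in Goblet, against 35.9%.

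**Figure D3:**
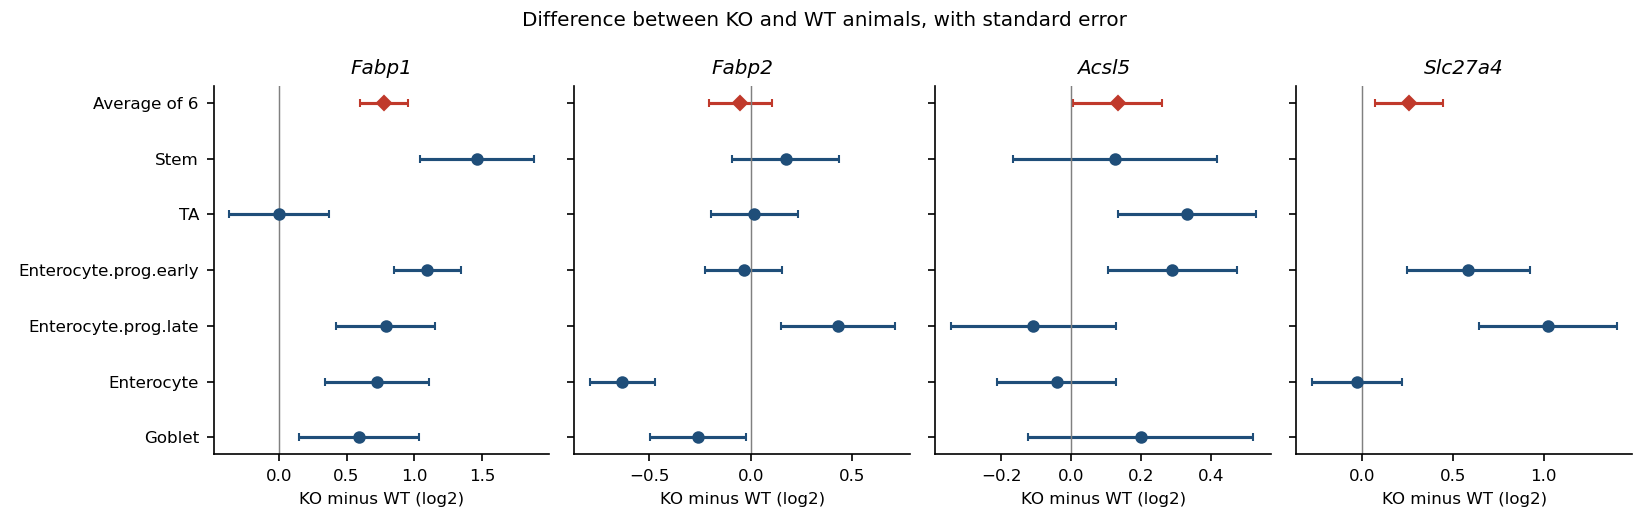
Points give the difference between KO and WT animals in log2(mean TPM + 1), with limma's standard error as bars, for the average of 6 cell types (diamond, top row) and each type, where the gene passed the filter; the x axes differ between panels. Fabp1 lies above 0 in 5 of 6 types and at 0 in TA, and Fabp2 is lowest in Enterocyte at -0.63.

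The member with the smallest p in Enterocyte was Fabp2, at -0.63 (SE 0.16, unadjusted p = 0.0031, adjusted p = 0.312, limma). This separation of animals did not hold within runs. In run 1 the Enterocyte means were 4019 and 8516 TPM in KO M1 and KO M2, against 1595 and 12412 TPM in WT M1 and WT M2, and in run 2 they were 4479 and 4069 TPM in KO, against 10188 and 3112 TPM in WT. The KO animals lay between the WT animals in both runs. The run differences were 0.39 in run 1 and -0.40 in run 2 (log2), over 4 to 12 cells per animal and run. Cell medians also overlapped, at 2212 and 2742 TPM in KO and 2085 and 3438 TPM in WT. The enterocyte markers moved with the means, with summed averages of 5929 and 7685 TPM in KO and 10750.4 and 14760.2 TPM in WT, while their medians overlapped, at 2781 and 4228 TPM in KO and 2229 and 2954 TPM in WT; their part in the Fabp2 difference was not tested. When KO M2 was left out the Enterocyte Fabp2 difference passed (-0.79, adjusted p = 0.0497, limma), as it did without the run 1 cells of KO M2 (-0.84, adjusted p = 0.0277, limma). Those fits passed 55 of 5860 genes (0.939%) and 27 of 5824 (0.464%), against 2 of 5840 (0.0342%) with all cells. With log2 values averaged over cells the difference was -0.03.

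**Figure D4:**
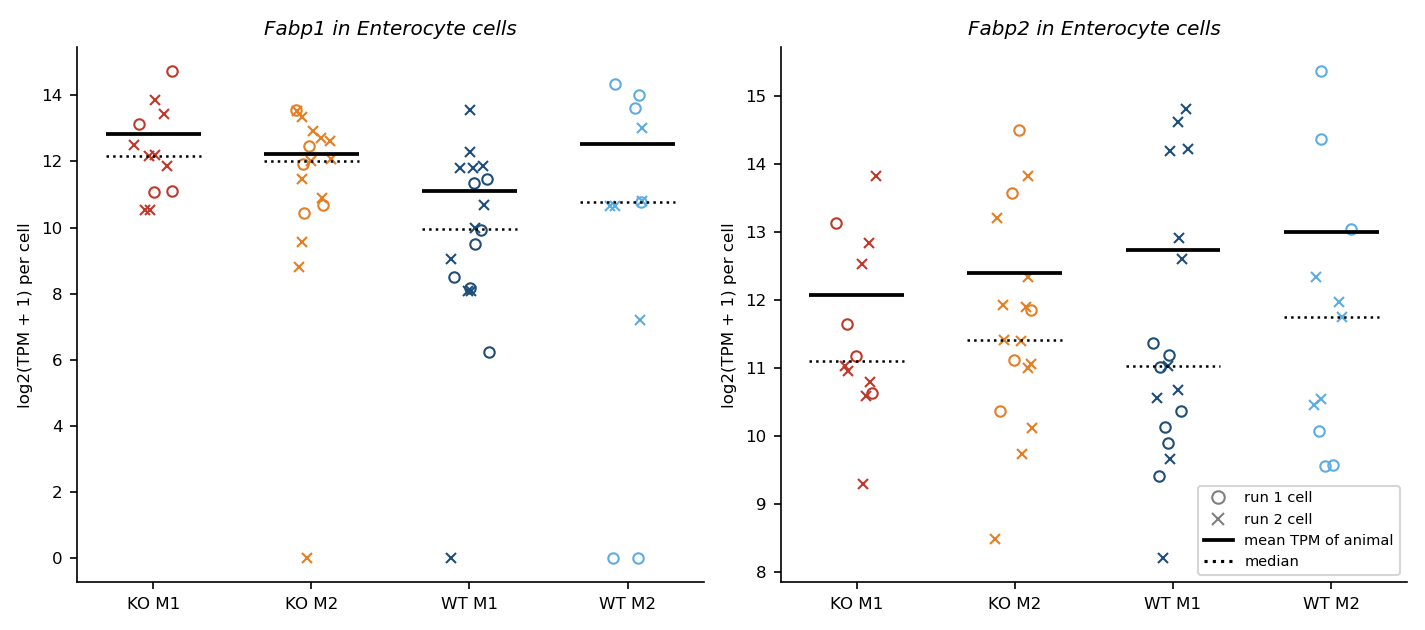
Each point is 1 Enterocyte cell, as log2(TPM + 1), by animal (circles run 1, crosses run 2); the solid line is the animal's mean TPM and the dotted line its median. For Fabp2 the mean sits well above the median in every animal. The WT means are 6846 and 8184 TPM against medians of 2085 and 3438 TPM. The KO means are 4326 and 5377 TPM against medians of 2212 and 2742 TPM. There are 4 cells (1 in KO M2, 1 in WT M1 and 2 in WT M2) with no Fabp1.

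The Stem-to-Enterocyte difference was compared between genotypes as well. Of 6752 genes, 0 (0%) passed in limma, with 412 at an unadjusted p under 0.05. The members' values for KO minus WT were -0.74 (SE 1.301) for Fabp1, -0.81 (SE 0.63) for Fabp2, -0.48 (SE 0.69) for Cd36, -0.17 (SE 0.39) for Acsl5 and 0.06 (SE 0.57) for Slc27a4. Cd36 is listed at 0 in Stem, so its value is that of Enterocyte alone. A moderated F test of whether the genotype difference varied over the 6 types passed 1 of 6777 genes (0.0148%), which was no member. The smallest member p was that of Fabp2 (0.0399 unadjusted, 0.654 adjusted, limma).

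Cells of one type were also compared with each other, across cells and not across replicates. In Enterocyte (58 cells from 4 animals and 2 runs) Spearman's rho was 0.78 for Fabp2 with Acsl5, 0.68 for Fabp1 with Fabp2, 0.66 for Acsl5 with Slc27a4, 0.62 for Fabp2 with Slc27a4 and 0.60 for Fabp1 with Acsl5. Pairs with Cd36 were weaker, at 0.24 to 0.40. In Stem (96 cells) the pairs without Cd36 lay between -0.17 and 0.06. The pair Fabp1 and Fabp2 went through 0.03 in Stem, 0.33 in TA, 0.54 in Enterocyte.prog.early, 0.69 in Enterocyte.prog.late and 0.68 in Enterocyte, while Fabp2 with Acsl5 was at 0.18 in Enterocyte.prog.late before its 0.78 in Enterocyte. The cells share their library preparation and a fixed TPM sum, and many early values are 0, so these figures are descriptions.

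Over the 24 profiles of 4 animals and 6 types, the members' pairwise Pearson r of log2(TPM + 1) lay between 0.78 (Fabp1 with Fabp2) and 0.93. The genes most like each member, out of 6773, were named by this r, 3 for each member and 2 for Acsl5. For Cd36 they were Ggt1 (0.954), Scp2 (0.953), which encodes a sterol carrier protein, and Apoa4 (0.9504), an apolipoprotein of chylomicrons. For Slc27a4 they were Abcd3 (0.955), a peroxisomal transporter, Tfg (0.955) and Sgpl1 (0.954), the sphingosine-1-phosphate lyase. For Acsl5 they were Treh (0.960), the brush border trehalase, and Tfg (0.959). For Fabp1 they were Ckmt1 (0.964), a mitochondrial creatine kinase, Mpp1 (0.964) and Anpep (0.963), the brush border aminopeptidase N. For Fabp2 they were Pls1 (0.951) and Ezr (0.942), which encode the microvillus proteins plastin 1 and ezrin, and Slc43a2 (0.934), an amino acid transporter. The profiles share animals and libraries, so no p is given.

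Of the close relatives of the members that passed the filter, all but Fabp6 had a lower mean in Enterocyte than in Stem. Of the other acyl-CoA synthetases, Acsl1 averaged 25.6 TPM in Enterocyte and 41.98 TPM in Stem, and Acsl3 2.90 TPM in Enterocyte and 17.5 TPM in Stem, both lower in all 4 Enterocyte than in all 4 Stem profiles. Of the other fatty acid transport proteins, Slc27a1 averaged 2.96 TPM in Enterocyte and 48.6 TPM in Stem, also with no overlap, and Slc27a2 99.6 TPM in Enterocyte and 147.5 TPM in Stem. Slc27a2 was the leading transport protein gene in Stem, and Slc27a4 led in Enterocyte with 173.7 TPM. Among other binding proteins Fabp5 averaged 10.2 TPM in Stem, 25.1 TPM in TA and 0.521 TPM in Enterocyte. Fabp6, the ileal bile acid binding protein, averaged 246.5 ± 235.4 TPM in Enterocyte (SD, 4 animals) and 10.3 TPM in Stem, with 29.3 TPM in Enterocyte.prog.early and 156.2 TPM in Enterocyte.prog.late between them. Its difference of 3.21 log2 units was close to the 3.11 of Acsl5, but its Enterocyte and Stem profiles overlapped, with a spread in Enterocyte almost as large as its mean.

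**Figure D5:**
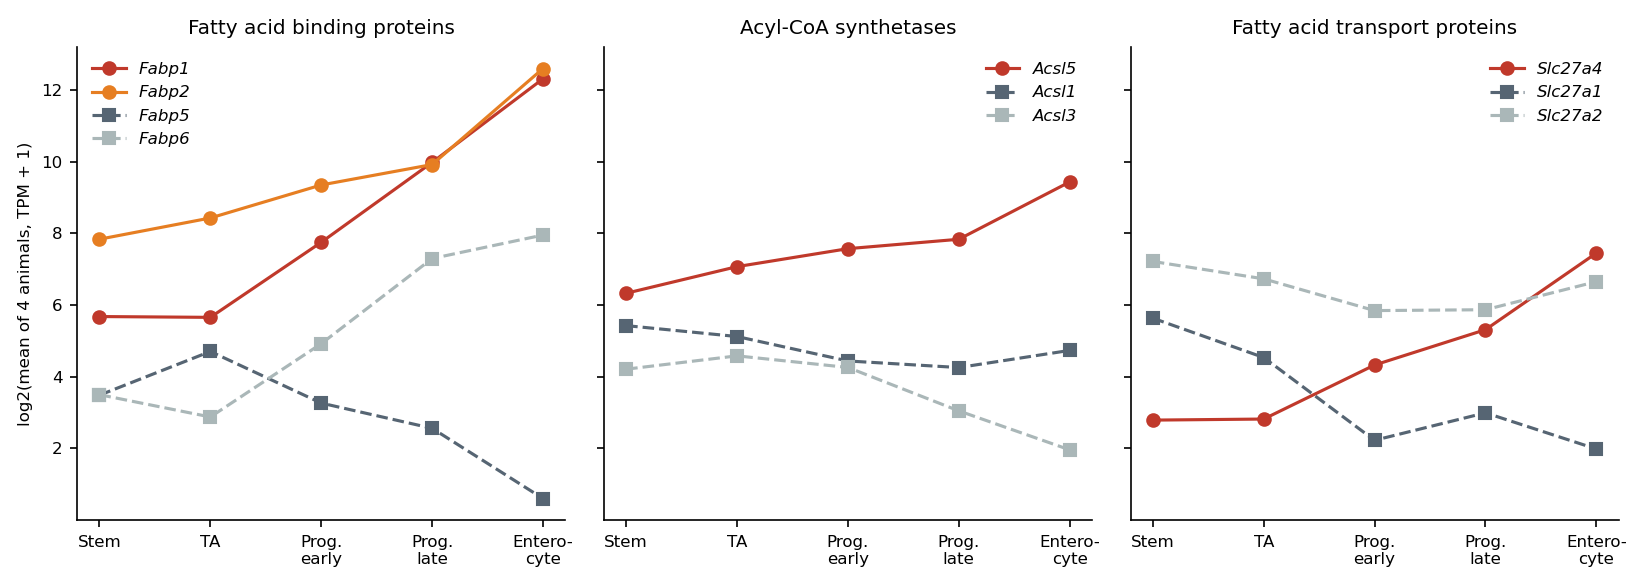
Lines give log2(mean of 4 animals in TPM + 1) at 5 stages for members (solid, red or orange) and their relatives (dashed, grey) in 3 gene families. Fabp1, Fabp2, Acsl5 and Slc27a4 end at their highest point in Enterocyte, while Fabp5, Acsl3 and Slc27a1 end at their lowest, at 0.521, 2.90 and 2.96 TPM.

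Later steps of fat absorption were read from gene lists. In chylomicron assembly 8 of 8 genes were higher in all Enterocyte than in all Stem profiles, with a median difference of 4.35 log2 units against -0.28 over all genes; 3 of them, Apoa1, Apoa4 and Apoc3, are also enterocyte markers here. Apoa1 averaged 7246 TPM in Enterocyte and 54.2 TPM in Stem, and Mttp, which loads lipid onto apolipoprotein B, 869 TPM in Enterocyte and 34.2 TPM in Stem. In triglyceride resynthesis 4 of 7 genes were so separated (median 2.13), including Mogat2, a monoacylglycerol acyltransferase, at 679 TPM in Enterocyte and 12.8 TPM in Stem. Of the other uptake and acyl-CoA binding genes 2 of 3 were, Npc1l1, the cholesterol uptake protein, and Dbi, the acyl-CoA binding protein. In lipid droplets and lipolysis 3 of 6 were higher and 1 of 6 lower, and in fatty acid oxidation 4 of 8 were higher and 0 lower. Of 9 transcription factors 3 (Hnf4g, Creb3l3 and Ppara) were higher and 1 (Hnf4a) lower: Hnf4g averaged 164.8 TPM in Enterocyte and 14.5 TPM in Stem, and Hnf4a 74.01 TPM in Enterocyte and 194.3 TPM in Stem. These counts are over the genes of each list that passed the filter on low values, and stand against 18.9% of all genes higher and 28.2% lower.

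Between KO and WT, 0 genes of these lists passed in limma in either direction on the average of 6 types. The median of KO minus WT was -0.04 over the 8 chylomicron genes, -0.05 over 7 triglyceride genes, 0.18 over 8 oxidation genes, -0.01 over 6 lipid droplet genes, -0.14 over 3 other uptake genes, 0.20 over 9 transcription factors and 0.03 over all genes. Of the 2 genes with the smallest p in each list, only some are given here. Got2 was at 0.52 (SE 0.14), Mttp at 0.41 (SE 0.14) and Creb3l3 at 0.67 (SE 0.24), while Apoc2 was at -0.72 (SE 0.22) and Dbi at -0.67 (SE 0.24), with limma adjusted p between 0.510 and 0.599. For the members' relatives the medians rest on 2 genes each, at 0.39 for the binding proteins, 0.19 for the synthetases and 0.15 for the transport proteins. Fabp1 is a gene whose level depends on the position along the intestine, which the labels do not give. Of 5 genes listed for the proximal small intestine that passed the filter all 5 were above 0 (median 0.49). Among them Adh6a was at 0.70 (SE 0.16, limma adjusted p = 0.495). Of 3 for the distal small intestine 2 were above 0 (median 0.20), while none of 3 colon genes passed the filter. Among the distal genes Fabp6 was at 0.93 (SE 0.58, limma adjusted p = 0.723), with KO and WT animals overlapping. Gata4 and Creb3l3 of the proximal list are also in the transcription factor list. Outside these position lists, 8 of 8 oxidation genes and 8 of 9 transcription factors were also above 0. Of the chylomicron genes 4 of 8 were, and of the triglyceride genes 1 of 7. The part of the position genes in the Fabp1 difference was not tested.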

How the data were processed

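Per the labels' protocols, single cells were profiled by SMART-Seq2; a 10X Genomics kit is also named there, and to which cells it applies is not given. The authors deposited 1 table of TPM values with a column per cell; per the submitters' processing notes, Bowtie, TopHat and RSEM were used, with versions and genome build not given in the sources used here. All 677 columns were matched to a library by name (0 left over), no 2 were identical, and no cell was removed and no doublet caller was run. TPM sums to the same total in every cell, so read depth is unknown.

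For each animal and cell type, TPM was averaged over cells and taken as log2(TPM + 1). The tests covered types in which each animal had 10 or more cells, and genes whose mean reached 10 TPM with 10% or more of cells above 0. The genotype test used limma 3.58.1 in R 4.3.3 (lmFit, eBayes with trend, two-sided, residual df 2; F test residual df 10), with p-values adjusted by Benjamini-Hochberg across all genes that passed the filter, at 0.05. The fits were also run on simulated data, with the cells of each type drawn with replacement over all animals. Drawing them so removes lasting differences between animals, so it does not measure the error of the test between animals. Shares of cells have exact binomial 95% intervals, and a count of 0 allows up to 3 cells of the total. Alternatives were 2 other pseudocounts, no filter, log values averaged over cells, quantile normalization, each run alone, run by animal units, the replicate number as a block, leaving out each animal, KO M2 of run 1, or the highest cell.

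Genes named were the 5 members, the 3 most alike genes of each (2 for Acsl5), and some of the 2 genes with the smallest p in each pathway list. Of these 2 per list, KO minus WT is given only for some, mostly those with the smaller p-values. Examples of the lists' levels were chosen after their values were seen. The members and lists were chosen with earlier results of these data known. A few genes of the lists are not reported here and were left out of the sums and counts. Promoter windows are RefSeq's (GRCm38.p6) and gene positions GENCODE vM21's (GRCm38). Protein sequences were not used here.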

Additional observations from a re-analysis of the deposited data

Results flagged for a closer look

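Means per animal and run were compared within each genotype, 4 values at a time, by the gap of the highest or lowest value to its neighbour relative to the range (Dixon's 95% value). Of 57 such groups 4 had a value that stood apart; chance flags about 1 in 20 groups. Fabp1 in TA was 162.5 TPM in KO M2 of run 2 (14 cells), high among the KO values. Fabp2 in Enterocyte was 8516 TPM in KO M2 of run 1 (5 cells), the value whose removal let the KO and WT difference in Enterocyte pass. Fabp2 in Enterocyte.prog.late was 1757 TPM in KO M1 of run 1 (6 cells). Fabp2 in Enterocyte.prog.early was 452.5 TPM in WT M1 of run 1 (13 cells), low among the WT values.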

How the results depend on the processing

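The Fabp1 average stayed above 0 under all 16 alternatives (0.53 to 1.28, limma adjusted p 0.0513 to 0.993) and passed under none. Genes passing on the average numbered 0 as reported, against 1 with quantile normalization, 5 with run 2 cells only, 1 with run by animal units, 0 to 18 with an animal left out and 46 with a crossed pairing chosen after seeing the data. With the replicate block 2 genes passed and no member. Deviations of same-numbered animals had r = -0.13 over 6777 genes. The labels do not say whether same-numbered animals share anything, and with 2 animals per genotype this r cannot settle it. Genes whose difference varied over types numbered 7 with a pseudocount of 0.1, 0 with 10, 40 with no filter, 0 with log values averaged, 0 in run 1, 4 without the run 1 cells of KO M2, 3 without the highest cell and 0 to 4 with an animal left out. Member calls over the 6 types, 0 as reported, were 1 without the run 1 cells of KO M2 (Fabp2 in Enterocyte), 1 with the crossed pairing and 0 to 2 with an animal left out: without KO M1 Fabp1 passed in Enterocyte.prog.late, and without KO M2 Fabp2 did there and in Enterocyte. Those fits passed 2.22%, 2% and 0.939% of all genes, and that without the run 1 cells of KO M2 0.464%, against 0.082% in Enterocyte.prog.late and 0.0342% in Enterocyte as reported. The member call with the crossed pairing was Fabp1 in Stem, in a fit that passed 33 of 6759 genes (0.488%), against 0% in Stem as reported. On the average, Fabp2 turned to 0.075 (quantile), 0.16 (run 1) and 0.0285 (run by animal), with -0.24 to 0.14 by animal left out, and Acsl5 to -0.067 (run 2) and -0.0032 (without KO M2 of run 1). For the Stem-to-Enterocyte difference, log values averaged turned Fabp1 to 0.31, Fabp2 to 0.0088 and Slc27a4 to -0.061; run 1 turned Fabp1 to 0.90, Fabp2 to 0.12, Cd36 to 0.39 and Acsl5 to 0.12; run 2 turned Slc27a4 to -0.15, leaving out KO M2 of run 1 turned it to -0.057, and run by animal units turned Cd36 to 0.082. By animal left out the ranges were -2.03 to 0.55 for Fabp1, -1.11 to 0.15 for Cd36 and -0.26 to 0.38 for Slc27a4. The gain itself moved to 8.19 for Fabp1, 3.67 for Acsl5 and 5.53 for Slc27a4 with log values averaged, to 2.91 for Acsl5 and 5.05 for Slc27a4 in run 1, and to 4.27 for Slc27a4 in run 2. Onset at 50% was at Enterocyte in every animal, except 3 of 4 for Acsl5 in each run alone and for Cd36 in run 2. Causes were not tested. Read depth is not known, and Enterocyte values rest on 4 to 12 cells per animal and run.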
